A study of Mus musculus with 41 samples.

Results

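A set of 10 genes of the extracellular matrix were followed through peak lists of 4 histone marks in 8 mouse cell types. They encode chains of the fibrillar collagens (Col1a1, Col1a2, Col3a1, Col5a1), chains of network-forming collagen IV (Col4a1, Col4a2), chains of beaded-filament collagen VI (Col6a1, Col6a2), fibronectin (Fn1) and the collagen-binding protein osteonectin (Sparc). The genes were chosen by name, with earlier results of these data known. Thus 10 of the 21728 protein-coding genes on chromosomes 1 to 19 and X were members. A gene was called in a list when a peak overlapped a promoter, 2 kb on either side of any of its annotated transcription start sites (TSS). The gene window was the gene body with 10 kb on either side.

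The marks were profiled by CUT&Tag, in which an antibody brings a DNA-cutting transposase to the mark. H3K18la, the lactylation of lysine 18 of histone H3, was profiled in all 8 cell types. H3K27me3, a mark of Polycomb-repressed chromatin, was profiled in 7 of them, H3K27ac (active promoters and enhancers) in 5 and H3K4me3 (promoters) in 4. All samples were labelled as controls. The 41 samples gave 24 pooled peak lists, 17 from 2 samples and 7 from 1 sample, so no list has a replicate error. Primary myoblasts (MB, C57BL/6) were grown on dishes coated with a basement membrane extract, and myotubes (MT) were obtained from them by 3 days in differentiation medium. Gastrocnemius muscle (GAS) was snap-frozen whole from female mice of 8 to 12 weeks (strain label C57BL/6, C57Bl6/J in the methods), so it holds every cell type of the muscle. White adipocytes (ADIPO, strain label C57BL/6) came from the fat of female AdipoCre-NuTRAP mice of 10 weeks, described as epididymal, in which an adipocyte-driven Cre tags nuclei that were then bound to streptavidin beads. Bone marrow-derived macrophages (BMDM) were grown for 7 days with M-CSF, and post-ischemia macrophages (PIM) were sorted from the muscle 2 days after the onset of hindlimb ischemia, both from C57BL/6 mice. The methods give female mice of 8 to 12 weeks for macrophage as for muscle samples. Embryonic stem cells of the E14 line were grown in serum-lif (mESC-ser) or 2i-lif (mESC-2i) and used as whole cells, whereas nuclei were used elsewhere. MB and BMDM lists rest on 1 sample each, as do the H3K27ac lists of PIM and mESC-ser.

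Collagen I, III and V chains assemble into the fibrils that give tendon, skin and the layers around muscle fibres their strength, and fibroblasts are their best-known source. Collagen IV forms the sheet of every basement membrane, including the one that wraps each muscle fibre, fat cell and capillary, and collagen VI links that sheet to the fibrils outside it. Fibronectin is a ligand of integrins that organizes the early matrix, and Sparc binds collagens and calcium.

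The promoter windows of the members differed in base composition. Those of Col3a1, Col5a1 and Col6a2 are shown as members that H3K27me3 marked in none, most and all of its lists. Entries for 8 of the 10 genes were matched in the RefSeq promoter table (GRCm38.p6, 300 bases each, 250 before and 50 after the start), and Col1a1 and Fn1 have none. The Col3a1 promoter (chr1:45311288-45311537, plus strand), which no H3K27me3 list marked, held 37.7% G and C and no CpG. The Col5a1 promoter (chr2:27886175-27886424, plus strand), marked by H3K27me3 in 5 of 7 lists, held 75% G and C with an observed over expected CpG ratio of 0.809. The Col6a2 promoter at its outer start (chr10:76623631-76623880, minus strand), called with H3K27me3 in 7 of 7 lists, held 56.7% G and C with a ratio of 0.253. Another Col6a2 start had a ratio of 0.557. Over the genes matched in the table H3K27me3 did not follow the ratio in 1 direction, since it marked 18.9% of genes with a ratio of at least 0.6 and 29% of the others in GAS, and 27.2 and 25.1% in mESC-ser. The median ratio over the 32851 promoters of the table was 0.384. These values cover all 300 bases, and each run shown is the 250 bases before the start. Capitals mark the letters of the motifs searched on both strands, which do not overlap in the runs shown and whose letters are given after the sequences.
Col3a1: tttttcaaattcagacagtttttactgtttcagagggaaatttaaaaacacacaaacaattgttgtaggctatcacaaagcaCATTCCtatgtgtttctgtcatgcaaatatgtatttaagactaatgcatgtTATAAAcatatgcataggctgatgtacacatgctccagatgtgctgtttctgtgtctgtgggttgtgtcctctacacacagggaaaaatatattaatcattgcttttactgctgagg
Col5a1: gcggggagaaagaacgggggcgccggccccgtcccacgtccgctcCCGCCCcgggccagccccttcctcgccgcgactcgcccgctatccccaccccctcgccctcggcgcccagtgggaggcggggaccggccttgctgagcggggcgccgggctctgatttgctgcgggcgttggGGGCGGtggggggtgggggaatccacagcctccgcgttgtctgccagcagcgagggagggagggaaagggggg
Col6a2: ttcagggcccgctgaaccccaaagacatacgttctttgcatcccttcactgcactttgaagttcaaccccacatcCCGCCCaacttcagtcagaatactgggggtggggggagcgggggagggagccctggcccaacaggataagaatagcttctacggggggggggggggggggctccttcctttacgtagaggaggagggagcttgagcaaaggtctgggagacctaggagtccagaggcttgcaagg
Col4a1 and Col4a2 start head to head on opposite strands, and their RefSeq transcripts share the 22 bases in capitals (chr8:11312801-11312830, plus strand shown), so that a peak at this start marks both genes.
Col4a1 and Col4a2 start: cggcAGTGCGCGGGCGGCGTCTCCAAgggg
The capitals in the following stretch of Col6a1 (chr10:76726116-76726145, minus strand) are the only AP-1 letters among the matched promoters.
Col6a1 site: tgctgatgctgTGACTCActcagctttgag

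The Sp1 box GGGCGG was found in 5 of the 8 matched members (Col1a2, Col5a1, Col4a1, Col4a2, Col6a2), against 35.7% of all promoters of the table. The CCAAT box was found in 3 (Col1a2, Col4a1, Col4a2; 37.4% of all promoters) and the TEAD site CATTCC in 2 (Col3a1, Col6a2; 14.7%). The TATA box TATAAA was found in Col3a1 (13.6% of all promoters). The AP-1 site TGANTCA was found in Col6a1 (7.81%). The E-box CANNTG, which is not capitalized because 72.3% of all promoters hold it, was found in 3 (Col3a1, Col6a1, Sparc). The letters describe these windows and show no binding.

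H3K18la lay at the promoters of nearly all members in muscle and fat cells. All 10 members were called in GAS, where 36.1% of all protein-coding genes were called. In MT 9 of 10 were called (all genes: 34.8%), missing Col6a2. In ADIPO 9 of 10 were called (all genes: 44.7%), missing Fn1. MB had the shortest list of the 4 and still marked 7 of 10 (all genes: 11.1%), missing Col1a1, Col6a1 and Col6a2.

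Fewer members were called outside muscle and fat, where the counts in the whole lists lay near the share of all genes or below it. Stem cells in serum-lif marked 4 of 10 with H3K18la, namely Col4a1, Col4a2, Fn1 and Sparc (all genes: 33.4%). In mESC-2i 2 of 10 were called, Fn1 and Sparc (all genes: 37.8%). PIM marked Col4a1, Col4a2 and Fn1 (all genes: 37.8%), and BMDM marked Col4a2 alone (all genes: 18.5%). With the lists reduced to the bases of the smallest, MT and both stem cell lists marked 2 of 10 each (all genes: 2.3% in MT, 5.54% in mESC-ser and 3.74% in mESC-2i), against 6 in MB (4.39%), 4 in GAS (3.36%), 5 in ADIPO (5.00%), 1 in BMDM (18.5%) and 0 in PIM (6.83%). The PIM calls of Col4a1 and Col4a2 and the BMDM call rested on internal starts. At the principal start of each gene, 7 members were called in MB (all genes: 8.42%), 9 in MT (30.3%), 10 in GAS (31.8%) and 9 in ADIPO (41.4%). In the other lists the counts were 4 in mESC-ser (all genes: 29.7%), 2 in mESC-2i (34.2%), 0 in BMDM (15.4%) and 1 in PIM (34%).

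Each of MB, MT, GAS and ADIPO marked 6 members at a promoter (Col1a2, Col3a1, Col5a1, Col4a1, Col4a2, Sparc), a pattern held by 6.28% of all genes. Of these, Col1a2, Col3a1 and Col5a1 were marked in none of the other 4 lists, a pattern held by 0.281% of all genes. Col4a1 and Col4a2 share 1 start, so the 10 genes stand for 9 separate main promoters. Among the 5000 largest peaks of each list 3 members were marked in MT (all genes: 6.37%), 4 in GAS (8.29%), 6 in MB (4.51%) and 7 in ADIPO (9.16%), although 5000 peaks are a larger part of the MB list (13550 peaks) than of ADIPO (28752), MT (33991) or GAS (36813). Within the whole lists, the median member promoter peak ranked at 78.3% in MB, 79.5% in MT, 81.8% in GAS and 93.1% in ADIPO.

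**Figure D1:**
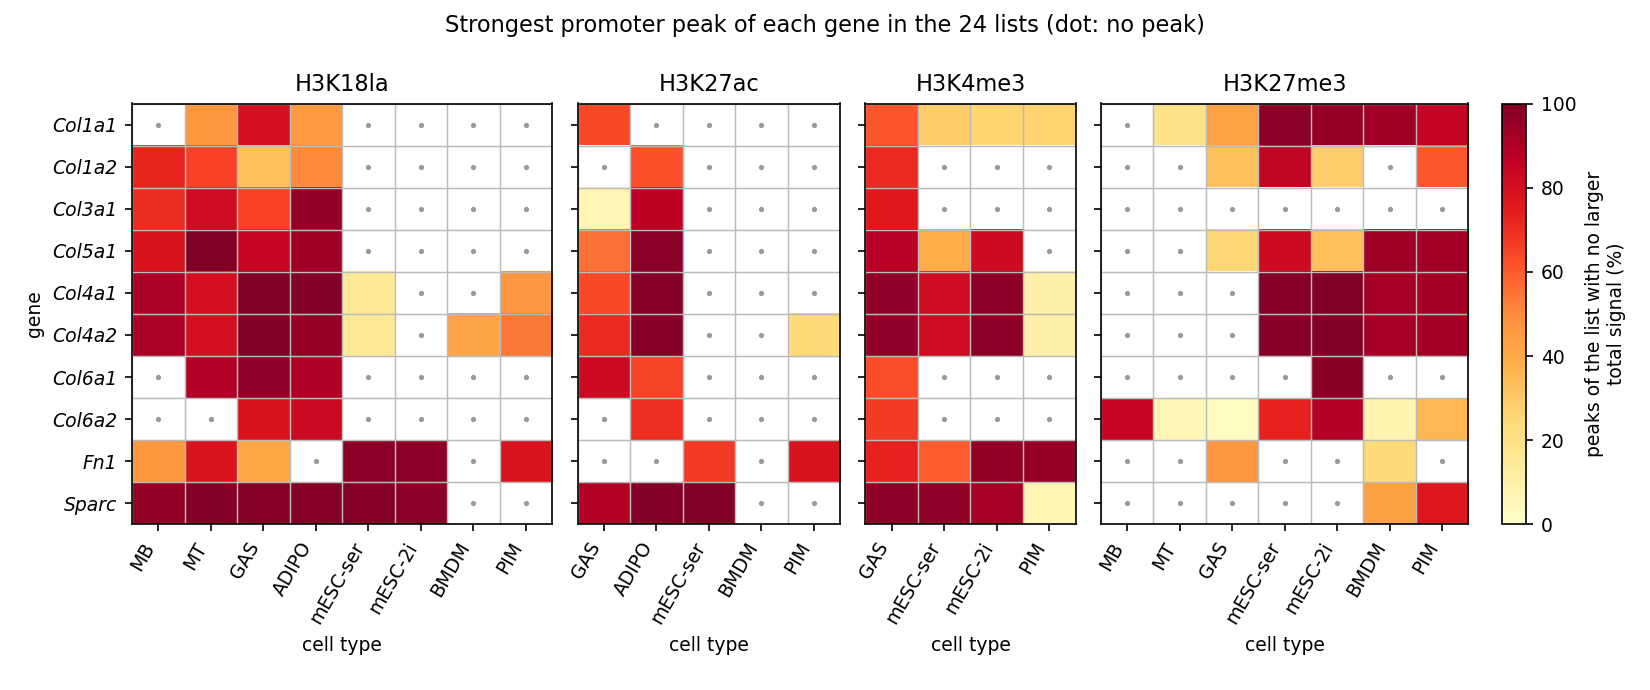
Promoter calls of the 10 genes (rows) in the 24 peak lists (columns, grouped by mark); the colour gives the percentage of peaks in the same list whose total signal is no larger than that of the gene's strongest promoter peak, and a dot marks a gene without a promoter peak. H3K18la fills all 10 rows in GAS and 9 in MT and ADIPO, whereas H3K27me3 at Col1a1, Col5a1, Col4a1 and Col4a2 fills the stem cell and macrophage columns.

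H3K27ac was present at fewer members than H3K18la in GAS and ADIPO, and H3K4me3 at as many in GAS. H3K27ac was called at 7 of 10 in GAS (all genes: 46.9%), where Col1a2, Col6a2 and Fn1 had none, and at 8 of 10 in ADIPO (all genes: 46.1%), where Col1a1 and Fn1 had none. The GAS count was 1 among the 5000 largest peaks (all genes: 13.9%) and 0 with the lists reduced to the bases of the smallest (4.25%), below all genes, while ADIPO kept 5 of 10 in both settings (14.4 and 19%). In mESC-ser H3K27ac was called at Fn1 and Sparc (all genes: 40.2%) and in PIM at Col4a2 and Fn1 (all genes: 48.7%), and BMDM had 0 of 10 (all genes: 34%). H3K4me3 marked all 10 in GAS (all genes: 64.2%), 6 in mESC-ser (all genes: 48.8%), 6 in mESC-2i (all genes: 61.8%) and 5 in PIM (all genes: 59.4%), with 4 in GAS among the 5000 largest peaks (25.2%). Whether H3K18la and H3K27ac differ at the members was not tested, because each list is a single pooled set.

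H3K27me3 marked members in MB and MT at about the share of all genes, and no H3K27me3 list of ADIPO was used. It was called at 1 member in MB, Col6a2 (all genes: 12.6%), and at 2 in MT, Col6a2 and an internal start of Col1a1 (all genes: 20.1%). The count was 5 in GAS (all genes: 24%; 0 members among the 5000 largest peaks, all genes 9.09%), 6 in mESC-ser (all genes: 27.1%) and 7 in each of mESC-2i (all genes: 22.5%), BMDM (all genes: 19.2%) and PIM (all genes: 26.5%). Summed over the windows of the 10 genes, H3K27me3 covered 39% of the bases in mESC-2i, 26.8% in BMDM, 15.4% in mESC-ser and 14.6% in PIM, against 4.34% in MB, 4.41% in MT and 2.75% in GAS. The Col4a2 window alone held 134951 of the 318421 bases in mESC-2i, where Col3a1 and Fn1 had none. The mean of the shares of single genes, which is not the same measure, was taken over all gene windows. It ranged from 4.22% in MB, close to the members' share there, to 10.7% in MT.

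Col1a1 encodes the major chain of collagen I and lies on the plus strand of chromosome 11 (94936224 to 94953042, mm10). H3K18la covered none of its window in MB, 26.4% in MT, 38.2% in GAS, 22.9% in ADIPO, 23.1% in mESC-ser, 40.9% in mESC-2i and none in BMDM and PIM. The stem cell values therefore reached those of muscle, but no stem cell peak lay on the start. In MT, GAS and ADIPO a promoter peak of 2.9, 5.1 and 2.8 kb spanned the TSS, with another peak 4 to 11 kb upstream, whereas the stem cell peaks lay mostly from 13.6 to 23.5 kb (mESC-ser) and 13.3 to 24.4 kb (mESC-2i), over the end of the gene and the start of the RNA gene Gm24877. MT and GAS also had a peak at this far end, and mESC-2i had one of the weakest peaks of its list (0.924% no larger) 5 to 9 kb upstream. The promoter peak ranked in the middle of its list in MT (46.4% of peaks no larger) and ADIPO (45.6%) and higher in GAS (79.3%).

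The Col1a1 promoter carried the broadest H3K27me3 domains of the fibrillar collagens in the other cell types. These spanned 20.1 kb in mESC-ser, 17.8 kb in mESC-2i, 24.2 kb in BMDM and 16.6 kb in PIM, each running across the start. H3K4me3 was called at the start in all 4 of its lists, in mESC-ser from -0.6 to 2.6 kb, inside the H3K27me3 domain. In GAS the H3K27me3 peaks were 2.2 to 2.5 kb wide, and 4302 bp of the Col1a1 window lay under both H3K18la and H3K27me3.

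Col1a2, the partner chain of collagen I, lies on chromosome 6 (4504814 to 4541544). H3K18la covered 12.2% of its window in MB, 6.5% in MT, 1.96% in GAS and 3.55% in ADIPO, and none in the other 4 cell types. The groups did not overlap, and MB, where Col1a1 had no peak at all, was highest. The peaks split around the TSS in MB and MT, at 0.9 to 3.5 kb and -3.9 to -1.5 kb for the strongest, and sat on it in GAS (-0.6 to 0.5 kb) and ADIPO (-0.9 to 1.1 kb). In GAS the whole 1111 bp of the H3K18la peak lay under H3K27me3.

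Col3a1 encodes the chain of collagen III and lies on chromosome 1 (45311538 to 45349706). H3K18la covered 4.2% of its window in MB, 26.8% in MT, 8.69% in GAS, 24.6% in ADIPO, 5.72% in mESC-ser and 5.27% in mESC-2i, with none in BMDM and PIM. MB thus lay below the stem cells on window cover, although the promoter was called in MB and not in the stem cells. The stem cell peaks began 44.8 and 45.1 kb past the TSS, beyond the end of the gene. At the promoter, ADIPO had the widest peak (8.6 kb, 95.5% of its list no larger), followed by MT (6.5 kb, 81.5%), GAS (3.8 kb, 65.4%) and MB (2.4 kb, 70.2%). Col3a1 was the only member with no H3K27me3 peak anywhere in its window in any of the 7 lists, and it carried H3K4me3 in GAS alone.

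Col5a1, the chain that starts collagen fibrils, lies on chromosome 2 (27886425 to 28039514). H3K18la covered 4.74% of its window in MB, 30.2% in MT, 19.9% in GAS and 6.37% in ADIPO, and none in the other 4 cell types. In MT a single 29.7 kb peak ran from -8.6 to 21.1 kb and ranked 222 of 33991, with a further 21.2 kb peak just upstream. The same stretch held 2 peaks in MB, 4 peaks in GAS and 1 peak of 5.0 kb in ADIPO. A peak 29.3 to 32.1 kb into the gene was shared by MB, MT, GAS and ADIPO, and H3K27ac peaks lay there in GAS and ADIPO. H3K27me3 marked the start in mESC-ser, mESC-2i, BMDM, PIM and GAS, with 14.3 kb in BMDM and 10.5 kb in PIM against 1.8 kb in GAS. The median peak of these lists was 5230 bp in BMDM, 4275 bp in PIM and 2779 bp in GAS.

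**Figure D2:**
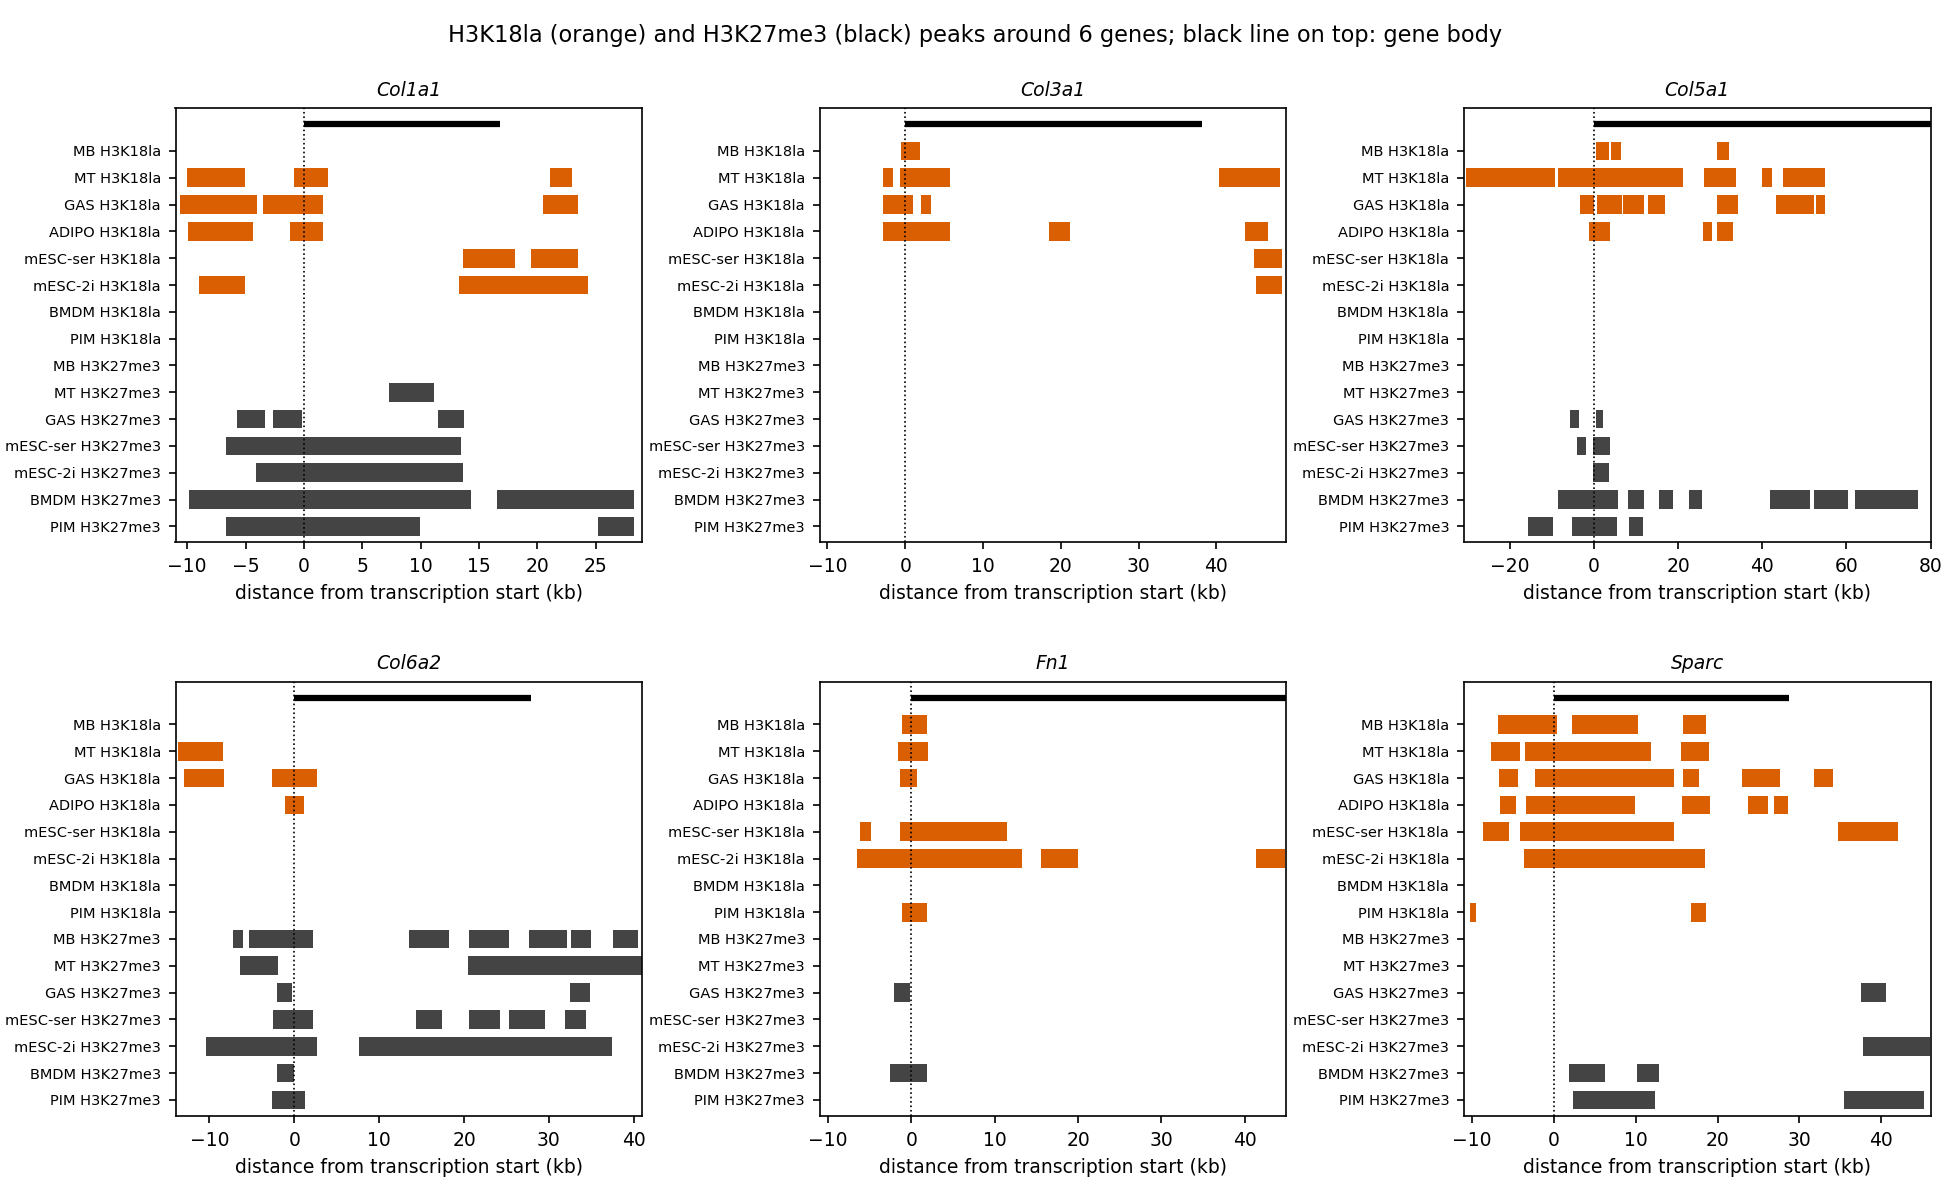
H3K18la (orange) and H3K27me3 (black) peaks around 6 genes in every list of the 2 marks, by distance from the principal transcription start in kb with the gene read left to right and the gene body as a line on top (the axes of Col5a1 and Fn1 stop before the gene end). The orange bars at the start of Col1a1, Col3a1, Col5a1 and Col6a2 belong to MT, GAS, ADIPO or MB, those of Fn1 and Sparc also to stem cells, that of Fn1 also to PIM, and Col3a1 has no black bar.

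Col4a1 and Col4a2 had the largest H3K18la domains of the 10 genes. They encode the most common chains of collagen IV and lie on chromosome 8, Col4a1 on the minus strand (11198423 to 11312826) and Col4a2 on the plus strand (11312805 to 11449287). H3K18la covered 14.6% of the Col4a1 window in MB, 28% in MT, 53% in GAS and 43.7% in ADIPO, against 1.62% in mESC-ser, 0 in mESC-2i, 1.62% in BMDM and 7.13% in PIM. For Col4a2 the values were 28.7% in MB, 57.1% in MT, 70.5% in GAS and 42.8% in ADIPO, against 1.39% in mESC-ser, 0 in mESC-2i, 3.17% in BMDM and 9.67% in PIM. In both genes every muscle and fat list lay above every other list, and GAS was highest.

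In MB, MT, GAS and ADIPO the widest peak of Col4a2 lay inside the gene, as did that of Col4a1 in MB, MT and ADIPO, whereas the widest Col4a1 peak in GAS lay across the shared start. In MT a peak of 46.9 kb, from 35.2 to 82.1 kb into Col4a2, ranked 19 of 33991 by total signal. GAS had a 41.6 kb peak from 45 to 86.6 kb (rank 84 of 36813), and MB had a 12.1 kb peak from 53.2 to 65.3 kb (rank 261 of 13550). In ADIPO the stretch was split into peaks of 13.3 and 11.9 kb. On the Col4a1 side the strongest MB peak spanned 11.4 kb from 45.9 to 57.3 kb and ranked 48 of 13550, the highest of any member peak in MB, and MT had an 18 kb peak there (rank 356). At or beside the start the strongest H3K18la peak ran over 3.5 kb in MB, 6.2 kb in MT, 31.2 kb in GAS and 9.0 kb in ADIPO.

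At the shared start and over the wide inner H3K18la stretches (26.8 to 66.5 kb into Col4a1 and 9.7 to 89 kb into Col4a2), all 4 stem cell and macrophage lists held H3K27me3. Elsewhere this was not so, since the stretches 89.8 to 94.1, 97.1 to 101.4 and 137 to 141.5 kb from the Col4a2 start carried H3K27me3 in mESC-2i alone and H3K18la in PIM as well as in muscle or fat lists. H3K27me3 covered 86.2% of the Col4a2 window and 76.8% of the Col4a1 window in mESC-2i, with a 52.2 kb peak across the start (rank 68 of 24613). The shares for Col4a2 were 26.9% in mESC-ser, 37.5% in BMDM and 24.2% in PIM, and 0 in MB, MT and GAS. The start carried H3K4me3 together with H3K27me3 in mESC-ser, mESC-2i and PIM. Its H3K4me3 peak ranked at 82% in mESC-ser and 96.9% in mESC-2i, but at 9.89% in PIM. In mESC-ser the start also had a 2.2 kb H3K18la peak, low in its list (15.1%) and wholly under H3K27me3. PIM had its strongest H3K18la peak of the region past the end of Col4a2, an 8.9 kb peak from 145.4 to 154.3 kb (rank 325 of 32066), where BMDM had an H3K27ac peak of rank 40 of 12884.

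**Figure D3:**
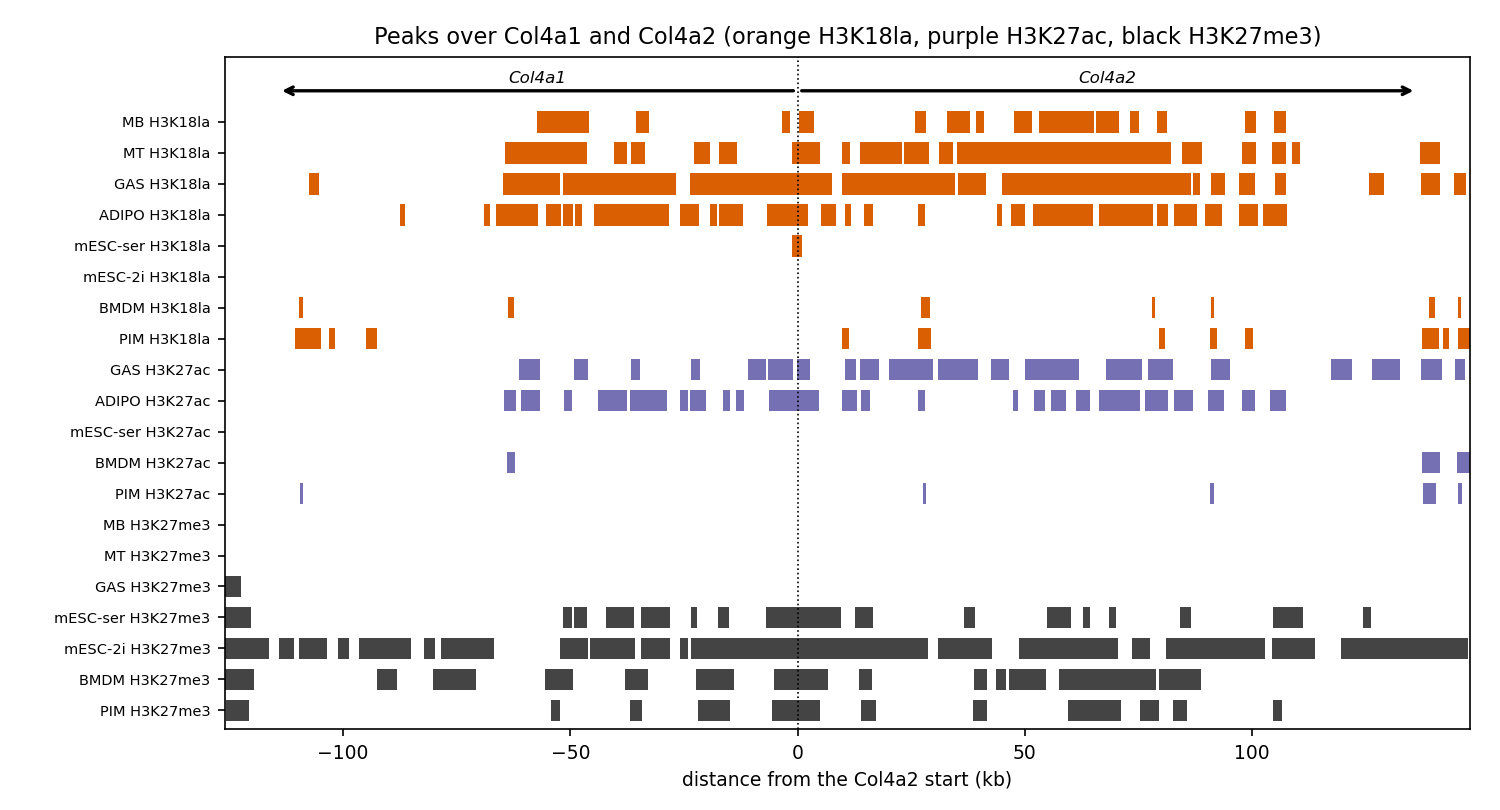
Peaks of H3K18la (orange), H3K27ac (purple) and H3K27me3 (black) over Col4a1 and Col4a2 in each list, by distance from the Col4a2 start in kb; arrows show the 2 genes and their direction. Orange bars lie inside both genes in MB, MT, GAS and ADIPO, as purple bars do in GAS and ADIPO. Over Col4a1 they are sparse in MB (orange, 14.6% of the window) and GAS (purple, 18.1%). Black bars fill both genes in mESC-2i and cover less of them in mESC-ser, BMDM and PIM.

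Col6a1 and Col6a2 lie on the minus strand of chromosome 10 (76708792 to 76726168 and 76595762 to 76623630), and their windows do not touch. H3K18la covered none of the Col6a1 window in MB, 29.9% in MT, 45.9% in GAS, 42.2% in ADIPO and none in the 4 other cell types. The Col6a1 promoter peak spanned 9.5 kb in MT, 11.1 kb in GAS and 6.2 kb in ADIPO and lay mostly upstream, from -8.3 kb in MT and GAS. No H3K27me3 peak reached a Col6a1 promoter except in mESC-2i, where a 25.5 kb domain covered the gene, and MB, the only muscle list without H3K18la there, had an H3K27me3 peak of 10.6 kb at the end of the gene (17.2 to 27.8 kb), as did MT (10.3 kb).

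Col6a2 was the member most often marked by H3K27me3, at a promoter in 7 of 7 lists. H3K18la covered none of its window in MB, 3.45% in MT (a peak 8.4 to 13.7 kb upstream of the gene), 14.5% in GAS, 4.76% in ADIPO and none elsewhere. H3K27me3 covered 52.8% of the window in MB and 45.5% in MT against 8.89% in GAS, 88.6% in mESC-2i, 38.2% in mESC-ser, 4.18% in BMDM and 7.93% in PIM. In MB a 7.5 kb H3K27me3 peak lay across the start (84.4% of its list no larger), whereas in MT the promoter call came from the edge of a peak that ended 1.9 kb upstream of the start and ranked low (6.76%). The GAS promoter peak of H3K27me3 was 1.8 kb wide, ranked at 2.99% and lay within the 5.3 kb H3K18la peak.

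Fn1, which encodes fibronectin, had its widest H3K18la promoter peaks in stem cells. It lies on the minus strand of chromosome 1 (71585520 to 71653200). H3K18la covered 3.36% of its window in MB, 4.01% in MT, 2.3% in GAS and none in ADIPO, against 16.1% in mESC-ser, 31.7% in mESC-2i, 3.37% in PIM and none in BMDM. The promoter peaks were 2.9 kb in MB, 3.5 kb in MT, 2.0 kb in GAS and 3.0 kb in PIM, and 12.8 kb in mESC-ser (rank 579 of 19057) and 19.8 kb in mESC-2i (rank 567 of 19908). H3K4me3 was called in all 4 lists and was widest in PIM (5.9 kb, 95.1%) and mESC-2i (5.4 kb, 95.6%). H3K27ac was called in mESC-ser and PIM and not in GAS, ADIPO or BMDM. ADIPO and BMDM had neither H3K18la nor H3K27ac there, and BMDM had a 4.5 kb H3K27me3 peak across the start.

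The Sparc promoter peak of H3K18la ranked at 96% or above in each muscle, fat and stem cell list. It lies on the minus strand of chromosome 11 (55394500 to 55423183), and the RefSeq start is 3.1 kb inside the gene model used for distances. H3K18la covered 36.9% of its window in MB, 45.6% in MT, 58.1% in GAS, 46.8% in ADIPO, 53.3% in mESC-ser, 45.5% in mESC-2i, 4.59% in PIM and none in BMDM. The promoter peak spanned 8.0 kb in MB, 15.3 kb in MT (rank 278 of 33991), 17.1 kb in GAS, 13.4 kb in ADIPO, 18.9 kb in mESC-ser (rank 253 of 19057) and 22.2 kb in mESC-2i. The strongest H3K27ac peaks of ADIPO (2.2 to 9.4 kb) and mESC-ser (2.5 to 9.6 kb) and the H3K4me3 peaks of GAS (2.7 to 10.7 kb) and mESC-ser (2.5 to 7.4 kb) began close to the RefSeq start. In GAS the strongest H3K27ac peak ran from -1.2 to 6.3 kb, across the principal start, and ADIPO had weaker peaks at -0.6 to 1.2 and -3.5 to -1.3 kb. Only the macrophages carried H3K27me3 at a Sparc promoter, over 10.0 kb in PIM and 4.4 kb in BMDM.

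**Figure D4:**
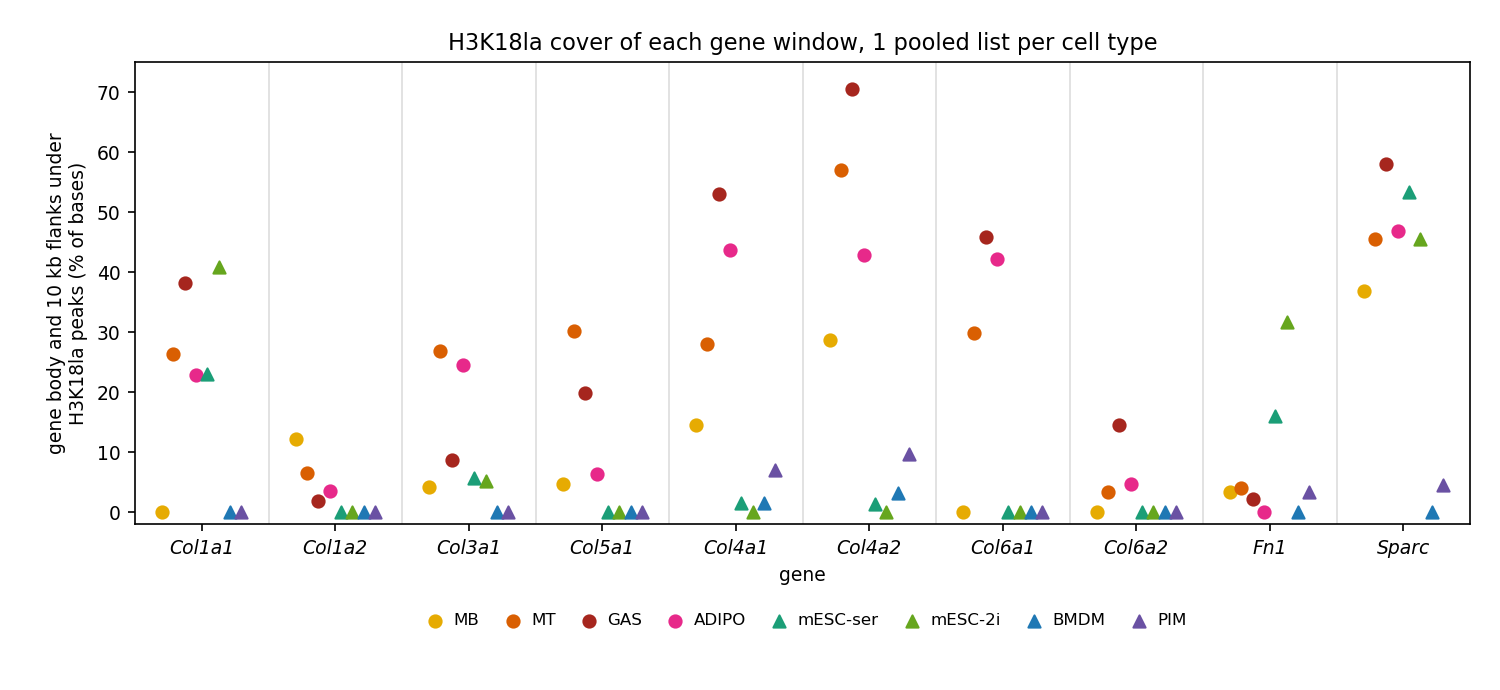
Share of each gene window (gene body with 10 kb on either side) under H3K18la peaks, in percent of bases, with 1 point for each of the 8 pooled lists (circles MB, MT, GAS and ADIPO, triangles the other 4). Circles lie above all triangles for Col1a2, Col5a1, Col4a1 and Col4a2, and triangles of stem cells reach or pass circles for Col1a1, Col3a1, Fn1 and Sparc.

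The window cover of muscle and fat cells (MB, MT, GAS, ADIPO) was compared with that of the other 4 cell types, with the cell type as the unit. The median member had 4.47% of its window under H3K18la in MB, 27.4% in MT, 29% in GAS and 23.8% in ADIPO, where the median of all genes was 0, 1.7, 1.16 and 2.41%. In the other cell types the median member had 1.5% (mESC-ser) or 0 (mESC-2i, BMDM, PIM). The median of all genes there was 0 in mESC-ser and BMDM, 1.71% in mESC-2i and 1.22% in PIM. The 4 muscle and fat values lay above the 4 others for 4 members, Col1a2, Col5a1, Col4a1 and Col4a2, an order found in 1.66% of all genes. The means were 34.8 against 2.59% for Col4a1, 49.8 against 3.56% for Col4a2, 15.3% against 0 for Col5a1 and 6.06% against 0 for Col1a2. An exact two-sided permutation test over the 8 cell types gave p = 0.0286 for each of these, the smallest p that 4 against 4 allow. No gene passed adjustment over all 21728 genes (smallest Benjamini-Hochberg value 1 in the exact permutation test), while 534 genes had an unadjusted p at that minimum. The values for the other members were p = 0.0857 for Col3a1, 0.143 for Col6a1 and Col6a2, 0.257 for Sparc, 0.286 for Fn1 (lower in muscle and fat, 2.42 against 12.8%) and 0.743 for Col1a1, by the same exact permutation test. Cell types of 1 lineage (MB and MT, mESC-ser and mESC-2i, BMDM and PIM) are not independent, and stem cells differed from the rest in being processed as whole cells. Without the stem cells, 6 members had all 4 muscle and fat values above both macrophage values (all genes: 5.17%), and without MB 7 members lay above all 4 other cell types (all genes: 5.88%). With the lists reduced to the bases of the smallest, only Col4a1 and Col4a2 kept groups that did not overlap (all genes: 0.207%).

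Within the joined member windows the 4 muscle and fat lists shared more of their H3K18la bases than they did over the genome. The bases in both MT and GAS were 0.594 of those in either (Jaccard index), against 0.251 over all peaks of the 2 lists. The index was 0.517 for GAS and ADIPO (genome 0.187), 0.439 for MT and ADIPO (0.133), 0.354 for MB and MT (0.219), 0.312 for MB and ADIPO (0.0685) and 0.293 for MB and GAS (0.105). Of the MB bases in the windows, 90.5% lay in MT peaks, whereas MB held 36.8% of the MT bases. H3K27ac peaks lay under H3K18la peaks for 84.5% of their bases in GAS (genome 39.5%) and 85.1% in ADIPO (genome 79.1%), while 54.8% and 64.6% of the H3K18la bases lay under H3K27ac (genome 63.2% and 56.2%). The Col4a2 window alone held 110386 of the 272874 H3K18la bases of GAS in the windows, and 44915 of 97688 in MB. H3K18la also covered more of the member windows than of gene windows on average (33.4 against 8.19% in GAS). Shared bases rise with cover, so the genome is not a like baseline. These shares are given as a description and were not tested.

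In all, 5 members carried H3K18la and H3K27me3 at a promoter in the same GAS list pair (Col1a1, Col1a2, Col5a1, Col6a2, Fn1), against 4.57% of all genes. H3K18la and H3K4me3 were each called at all 10 members in GAS. The count is therefore that of H3K27me3 alone (5 of 10, all genes: 24%), and all 5 also carried H3K4me3. The overlapping bases were 4302 bp in the Col1a1 window, 1815 bp for Col6a2, 1498 bp for Col5a1, 1199 bp for Fn1 and 1111 bp for Col1a2. In MB no member carried both marks at a promoter (all genes: 0.387%) and in MT only Col1a1 did, at different starts (3.14%). The strongest GAS H3K27me3 promoter peaks of the 5 genes ranked between 2.99% (Col6a2) and 46.2% (Fn1) of their list, and none was among its 5000 largest.

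GAS also carried H3K18la at markers of other cell types. All genes were called at 11.1% in MB, 34.8% in MT, 36.1% in GAS and 44.7% in ADIPO. H3K18la marked 5 of 5 endothelial markers (Pecam1, Cdh5, Kdr, Tie1, Emcn) and 5 of 7 fibroblast markers in GAS, with 1.29 to 34.6% and 0 to 40.4% of their windows covered. In MB and MT 1 of 5 endothelial and 1 of 7 fibroblast markers were called. Summed over the list, endothelial cover was 93.2% in GAS, 8% in MB, 10.8% in MT and 5.86% in ADIPO, and fibroblast cover was 115, 16.1, 80.4 and 116%. Smooth muscle and pericyte markers were called 2 of 5 in GAS, MB and MT and 1 of 5 in ADIPO, and Schwann cell markers 1 of 3 in GAS and MT, 2 in ADIPO and 0 in MB. ADIPO marked 5 of 5 adipocyte markers, 4 of 7 fibroblast markers (Dpt, Dcn, Lum, Scara5) and 0 of 5 endothelial markers. Adipocyte markers were also called 3 of 5 in PIM, 2 in GAS (Lipe, Pparg; summed cover 51.5% against 294% in ADIPO), 1 each in MB, BMDM and mESC-ser and 0 in MT and mESC-2i. Fibroblast markers were also called 4 of 7 in mESC-2i, 2 in mESC-ser, 1 in PIM and 0 in BMDM, and endothelial markers 2 of 5 in BMDM and PIM (Pecam1, Cdh5) and 1 of 5 in each stem cell list (Pecam1). MT marked 6 of 6 muscle fibre markers and GAS 5 of 6, while MB and MT each marked 4 of 5 progenitor markers. Macrophage markers were called 5 of 5 in BMDM and PIM, 3 in MT, 2 in GAS and ADIPO and 0 in MB, and the stem cell lists marked 5 of 5 pluripotency genes. Fewer cells of a type and less mark per cell cannot be told apart in such lists, and the part of these markers in the member results was not tested.

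Other matrix genes, in 7 lists by function that hold 117 genes in all, followed the members only in part. H3K18la marked 46 of the 117 in MB (39.3%; all genes 11.1%), 77 in MT (65.8%; 34.8%), 83 in GAS (70.9%; 36.1%) and 62 in ADIPO (53%; 44.7%). In the other lists it marked 52 in mESC-ser (44.4%, all genes 33.4%), 46 in mESC-2i (39.3%, 37.8%), 22 in BMDM (18.8%, 18.5%) and 33 in PIM (28.2%, 37.8%), so that the shares in mESC-2i and BMDM were close to those of all genes. Of the 19 other collagens, 6 were called in MB (31.6%), 8 in MT (42.1%), 8 in GAS (42.1%) and 4 in ADIPO (21.1%), the last being below the share of all genes. H3K27me3 marked 7 of these collagens in MB (36.8%, all genes 12.6%), 11 in MT (57.9%, 20.1%), 12 in GAS (63.2%, 24%) and 17 in mESC-ser (89.5%, 27.1%). It marked 14 in mESC-2i (73.7%, all genes 22.5%), 11 in BMDM (57.9%, 19.2%) and 16 in PIM (84.2%, 26.5%). Basement membrane genes (14) were marked in stem cells as well as in muscle and fat, with 9 in MB, 10 in MT, 11 in GAS, 10 in ADIPO, 13 in mESC-ser and 10 in mESC-2i, but 2 in BMDM and 4 in PIM. The 9 small proteoglycans were all marked in ADIPO, with 7 in GAS, 6 in MT, 2 each in MB, mESC-ser and mESC-2i, 1 in PIM and 0 in BMDM. Collagen processing genes (21) were marked most in GAS (18) and MT (16), with 6 in MB and PIM, 12 in ADIPO and mESC-ser, 10 in mESC-2i and 1 in BMDM. For elastic fibre and matricellular genes (18) the counts were 8 in MB, 9 in MT, 12 in GAS and 6 in ADIPO, with 6 in each stem cell list and 2 in each macrophage list. For matrix turnover (14) they were 4 in MB, 10 in MT, 10 in GAS and 5 in ADIPO, with 6 in mESC-ser, 4 in mESC-2i, 5 in BMDM and 6 in PIM. Matrix receptors and the TGF-beta pathway (22) had 11 in MB, 18 in MT, 17 in GAS and 16 in ADIPO, with 10 in mESC-ser, 13 in mESC-2i, 11 in BMDM and 12 in PIM. By count, MB lay within the range of the stem cell and macrophage lists for turnover and for receptors. The shares of all genes differed, however. MB stood at 28.6 and 50% (all genes: 11.1%), and mESC-2i at 28.6 and 59.1% (all genes: 37.8%).

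**Figure D5:**
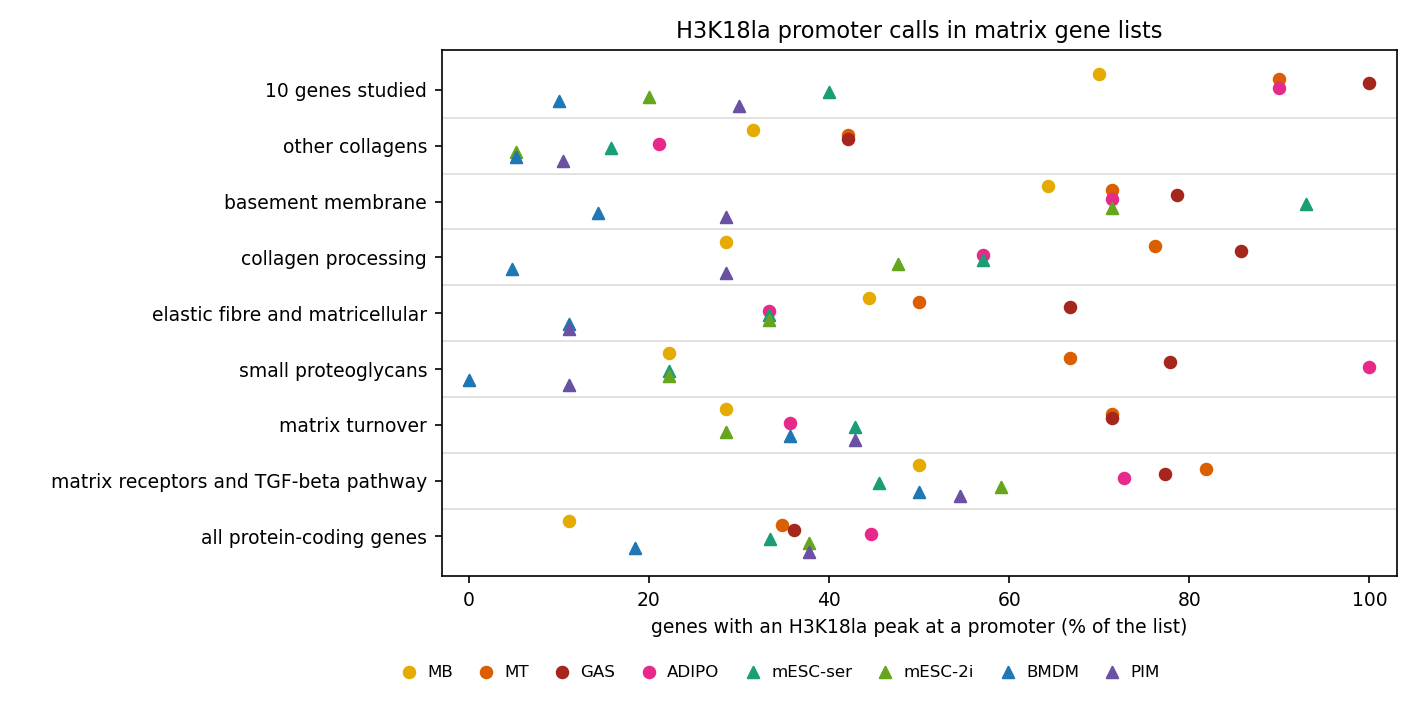
Percentage of genes with an H3K18la promoter peak in the 10 genes studied, in 7 lists of other matrix genes and among all protein-coding genes (rows), with 1 point for each of the 8 pooled lists. The 10 genes stand at 70% or more in MB, MT, GAS and ADIPO, and the other collagens stay at or below 8 of 19 in every list.

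In all, 7 genes of these lists had the pattern of Col1a2, Col3a1 and Col5a1, with H3K18la in MB, MT, GAS and ADIPO and in none of the other 4 (7 of 117; all genes 0.281%). They were the collagen V chains Col5a2 and Col5a3, the collagen cross-linking enzyme Lox, the matricellular genes Tnc and Thbs2, the small proteoglycan Omd and the growth factor Tgfb3. Window cover in the order MB, MT, GAS and ADIPO was 1.07, 2.17, 2.87 and 3.83% for Col5a2 and 1.89, 19, 20.9 and 35.4% for Col5a3, so that all 3 collagen V genes kept the pattern. Lox, which joins collagen chains by oxidizing their lysines, had 21.9, 28.1, 4.24 and 7.79%, and Thbs2 had 15.7, 58.9, 18.1 and 16.2%. H3K27me3 at a promoter in each of MB, MT and GAS, the pattern of Col6a2, was found for 10 of the 117 (all genes: 9.61%), a share near that of all genes. They were Col2a1 (the cartilage collagen), Col6a5, Col6a6, Col8a2, Col15a1, Col27a1, Lama1, Eln (elastin), Vtn and Mmp9. Col15a1 carried H3K18la in the same 3 lists, covering 7.72, 17.2 and 51.4% of its window in MB, MT and GAS, as did Col27a1 with 5.29, 16.1 and 14.8%. Col15a1 was also called in ADIPO (30.8%), BMDM (25.8%) and PIM (43.2%), whereas Col27a1 was not. H3K18la was also called at Eln in GAS and at Col8a2 in MT, whereas Col2a1, Vtn and Mmp9 had none in MB, MT and GAS.

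The genes most like each member were taken from other chromosomes by the correlation of window cover over the 24 lists, given as a description, since the lists share cell types, marks and peak numbers. Col4a2 was closest to Parva (Pearson r = 0.92), Spsb1 (0.91) and Cspg4 (0.91), and Col4a1 to C1qtnf1 (0.94), Itih4 (0.90) and the collagen V gene Col5a3 (0.90). Col3a1 was closest to the matrix gene Matn2 (0.94), Efcab1 (0.93) and Arhgap28 (0.92), Col5a1 to Rnf122 (0.92), Cald1 (0.91) and Ccdc83 (0.89), and Col1a1 to Susd5 (0.89), Podxl (0.87) and Hhipl1 (0.87). Col1a2 was closest to Ddo (0.91), Snai2 (0.86) and 5930422O12Rik (0.86), and Col6a1 to Crispld2 (0.91), Mylk (0.91) and Cxcl9 (0.90). Col6a2 followed Col6a6 (0.97), Rhox6 (0.97) and Mfsd6l (0.93), Fn1 followed Slc25a13, Aurkc and Olfr510 (0.95 each), and Sparc followed Akap2 (0.91), Tanc1 (0.89) and Actn4 (0.89).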

How the data were processed

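The authors trimmed reads (Trim Galore 0.6.6), aligned them to mm10 (Bowtie2 2.4.4), computed coverage with bedtools 2.30, pooled replicates and called peaks with SEACR 1.3, keeping the top 1% of regions. The deposited lists give each peak's total and maximum signal (summed and highest coverage). The values are whole numbers not scaled for depth, so signal was ranked within a list only. Sequencing depth is not in these lists and was not analysed here. The lists hold 11002 to 36813 peaks on the chromosomes used and cover 22.6 to 197 Mb. Their median peak width ran from 916 bp (BMDM H3K18la) to 6036 bp (MT H3K27me3), so widths from different lists are not on 1 scale.

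Promoters (2000 bp on either side of any TSS, 1 bp of overlap) and windows (gene body with 10000 bp on either side) came from GENCODE M21. Distances are from the 5'-most APPRIS principal start. The genes, the gene lists and the tests were chosen with earlier results of these data known. Genes of the lists were named when H3K18la marked MB, MT, GAS and ADIPO and none of the other 4, or H3K27me3 marked MB, MT and GAS, and the 3 most correlated genes on other chromosomes were named for each member. The 3 stem cell lists named without a medium (H3K18la, H3K27me3, H3K4me3) were taken as mESC-ser. The H3K18la list is named in the sample descriptions, and the other 2 differ from the names given there by the medium. Because replicates were pooled, the exact permutation test took cell types as units, and functions were tested on simulated data. Python 3.11.15 with numpy 2.4.6, pandas 2.3.3 and scipy 1.17.1 was used.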

Additional observations from a re-analysis of the deposited data

How the results depend on the processing

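No paired analysis was possible because replicates were pooled into 1 list per group before peaks were called. The 10 promoter counts in MB, MT, GAS and ADIPO were recomputed under 8 settings, and 61 of 80 values stayed within 1.5 times the reported count. With the 5000 largest peaks of each list, H3K18la counts fell to 3 in MT (all genes: 6.37%) and 4 in GAS (8.29%), H3K27ac to 1 in GAS (13.9%) and 5 in ADIPO (14.4%), H3K4me3 to 4 in GAS (25.2%) and H3K27me3 to 0 in MT (11.9%) and GAS (9.09%). With the lists of a mark reduced to the bases of the smallest, H3K18la counts were 6 in MB (all genes: 4.39%), 2 in MT (2.3%), 4 in GAS (3.36%) and 5 in ADIPO (5.00%), against 2 in mESC-ser (5.54%), 2 in mESC-2i (3.74%), 1 in BMDM (18.5%) and 0 in PIM (6.83%), so that the stem cell counts then lay above the share of all genes. H3K27ac counts were then 0 in GAS (4.25%) and 5 in ADIPO (19%), and H3K27me3 counts 0 in MT (6.26%) and GAS (10.6%). The MT count of H3K27me3 was 2 with the settings used above (all genes: 20.1%). It was 1 with promoters of 1000 bp, with protein-coding transcripts, with the gene's 5' end, with 500 bp of overlap and, added after seeing the data, with the principal TSS.

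For H3K18la window cover, 4 members had groups that did not overlap (all genes: 1.66%). The count was 2 with lists reduced to the smallest (all genes: 0.207%) and 3 with the 5000 largest peaks (0.414%). It was 4 to 7 when 1 cell type was left out (all genes: 1.68 to 5.88%), with 7 without MB (5.88%). The smallest adjusted p ranged from 0.55 to 1 over all settings of this exact permutation test. The Col1a1 difference became -2.11 points on the gene body alone, and that of Fn1 became 0.737 points without mESC-ser and mESC-2i. The median rank of MT H3K18la promoter peaks fell from 79.5 to 53.2% when signal was divided by width. The causes were not tested, except that reduced lists hold fewer peaks by construction.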
